A study of Mus musculus with 180 samples.

Results

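Whole-kidney RNA from 4 TNF-deficient mice given lipopolysaccharide (LPS) was compared with kidney RNA from 4 wild type mice given the same dose. The libraries were chosen by their labels alone, as kidney samples with that genotype and treatment, and make up 8 of 180 libraries in the series. All 13820 genes of the kidney table were considered. The TNF-deficient mice were B6.129S-Tnftm1Gkl/J animals given 5 mg/kg LPS (mice 9 to 12). The wild type mice were C57BL/6J animals given 5 mg/kg LPS (mice 5 to 8). A further 4 C57BL/6J mice received PBS (mice 1 to 4) and serve as the untreated level. All were female, 6 weeks old, perfused before collection and sampled at 12 hours. The allele is present in every cell of the animal. TNF-deficient kidneys without LPS were not analysed here, so whether a gene already differed at rest, through the allele or the B6.129S strain, and whether its LPS response differed cannot be told apart.

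LPS is a bacterial cell wall component sensed by the receptor TLR4 and its co-receptor CD14. Macrophages and other cells then release TNF, which acts through its receptors TNFR1 and TNFR2 to activate NF-kB, stress kinases and, in some cells, death pathways. In the kidney, sepsis and LPS are known to injure the tubule: its cells lose transporters and oxidative enzymes and switch on injury genes such as Havcr1, Lcn2 and Sox9.

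The measurement was 3′ tag sequencing, in which each read marks the poly(A) end of a transcript. The deposited values are a library-scaled signal. Total counts were 1296426, 1818036, 2106453 and 2044232 in the TNF-deficient LPS kidneys, against 1466855, 1482731, 1379061 and 1084176 in the wild type LPS kidneys. PBS kidneys held 1350853 to 1874075. Depth thus moved with genotype, and counts of changed genes are also given after thinning all libraries to 1084176 counts. A signal of 1.42 to 2.77 corresponds to 3 counts in the LPS libraries, so values near 1 rest on a few reads. Segment markers of the kidney were present throughout: the summed signal of 48 proximal tubule genes was 22000 to 25700 in TNF-deficient LPS kidneys, 14200 to 17700 in wild type LPS kidneys and 33900 to 38900 in PBS kidneys. In bulk tissue, fewer cells of a type and less RNA per cell cannot be told apart.

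Some libraries stood apart. Adrenal cortex genes (Star, Cyp21a1, Hsd3b1 and Akr1b7, summed) had signals of 138, 7.96, 9.47 and 5.83 in mice 9 to 12, against 257, 809, 17.6 and 46.2 in mice 5 to 8, and 7.68 to 13.7 in PBS mice. Mouse 9, mouse 5 and above all mouse 6 therefore carried adrenal signal. Mouse 8, and slightly mouse 7, also lay above the PBS range, and both remain when mice 5, 6 and 9 are left out. Over the full adrenal list, 8 of 12 markers were in the table, and their sum was 116 to 272 in TNF-deficient LPS, 110 to 1030 in wild type LPS and 133 to 150 in PBS kidneys. Cyp21a1 was at 0 in mouse 12, mouse 7 and PBS mouse 1. Mouse 6 was also the wild type LPS library least like its group (Spearman 0.9531 with mouse 7 and 0.9545 with mouse 8). Among the wild type LPS libraries it lay nearest to the PBS mean for 52.2% of 2143 genes that LPS raised and for 46.2% of 2894 that LPS lowered. Values without mouse 6, or without mice 5, 6 and 9, stand beside several results below. The part of these libraries' features in the results was not tested beyond this.

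The targeted gene itself did not fall. Tnf had signals of 31.6, 27.1, 28.4 and 26.7 in TNF-deficient LPS kidneys, against 6.67, 7.69, 8.07 and 7.39 in wild type LPS kidneys and 4.19 to 6.41 in PBS kidneys. Every TNF-deficient library lay above every wild type library (log2 difference 1.80, SE 0.21, adjusted p = 9.8e-07; here and below from limma with Benjamini-Hochberg adjustment over all genes tested). Tnf was also called higher in 10 of the 14 other tissues. The labels do not say which part of Tnf the allele removes, and a 3′ tag outside that part does not check the genotype. The neighbouring ligand gene Ltb was at 8.43, 12.7, 6.63 and 4.86 in TNF-deficient LPS kidneys against 6.67, 7.69, 4.40 and 4.62 in wild type LPS kidneys, with overlapping groups (adjusted p = 0.40).

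Among 13242 genes tested, 1749 were higher (13.2%) and 903 lower (6.82%) in TNF-deficient than in wild type LPS kidneys. That is 20% of the genes, while in the 14 other tissues of the same mice the share ran from 1.02% in brain to 9.40% in liver. Higher genes gained mostly by modest amounts: 403 exceeded a log2 difference of 1 and 23 exceeded 2. Of the lower genes, 191 lay under -1 and 15 under -2. The median log2 difference over all genes tested was 0.05. All 4 TNF-deficient libraries lay above all 4 wild type libraries for 1749 genes (13.2%) and below them for 917 (6.92%). After thinning to equal depth 1497 were higher and 758 lower. The balance of the directions moved with the scaling, to 1466 higher and 1207 lower with median-of-ratios factors. With edgeR, which also changed the test and the filter (10721 genes tested), 1449 were higher and 1277 lower. Without mouse 6 there were 2140 higher and 1175 lower.

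**Figure D1:**
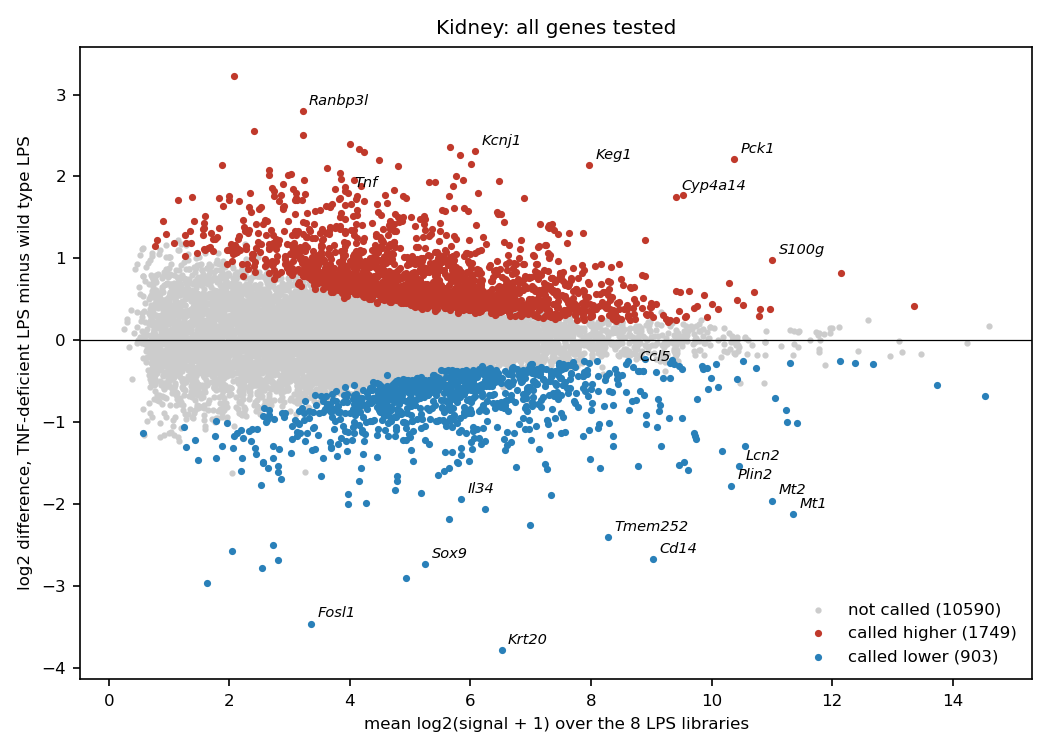
Log2 difference between TNF-deficient LPS and wild type LPS kidneys (vertical axis) against mean log2(signal + 1) over the LPS libraries (horizontal axis), 1 point a gene; coloured points passed an adjusted p of 0.05. Krt20 lies lowest at -3.79, and the points above 0 outnumber those below among the coloured ones, 1749 against 903.

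Genes that mark injured tubule were lower without TNF. Of 35 tested members of the tubule injury list, 23 fell (65.7%, against 6.82% of all genes) and 0 rose, with a median log2 difference of -0.76 against 0.05 over all genes. A count of 0 in a direction here and below was 0 with limma, edgeR and DESeq2, and 0 at an unadjusted limma p under 0.05, except where other counts are printed. On this list 2 members were higher at the unadjusted level. Shares of list members here and below stand beside the 6.82% of all genes that fell and the 13.2% that rose. The same list had a median of 1.87 for wild type LPS against PBS. Both comparisons use the same wild type LPS libraries, so here and below the values are only set side by side. The count of lower members was 21 to 24 whichever mouse was left out, though without mouse 6 there were also 2 higher members.

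Krt20, an intermediate filament keratin that appears in injured tubule cells, had signals of 14.8, 23.9, 49.2 and 18 in TNF-deficient LPS kidneys, against 361, 186, 491 and 404 in wild type LPS kidneys and 11.5 to 14 in PBS kidneys. The groups were far apart (log2 difference -3.79, SE 0.26, adjusted p = 3.8e-10), and mouse 9 and mouse 12 lay just above the PBS range. Sox9, a transcription factor of regenerating tubule, had 11.9, 15.9, 15.6 and 12.1 in TNF-deficient LPS kidneys, against 98.7, 28.8, 173 and 178 in wild type LPS kidneys and 4.93 to 10.8 in PBS kidneys (-2.73, SE 0.35, adjusted p = 4.3e-06). Mouse 6 was the low wild type library and still lay above every TNF-deficient one. Fosl1, an AP-1 subunit, had 0.703, 1.59, 4.26 and 2.91 in TNF-deficient LPS kidneys, against 28.7, 8.97, 77.0 and 56.3 in wild type LPS kidneys (-3.46, SE 0.48, adjusted p = 9.9e-06). The low group was near the level of a few counts, and over the alternatives the Fosl1 difference ran from -4.22 to -3.06.

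Other injury genes were reduced as well, and Lcn2 and Plin2, like Krt20 and Sox9, stayed above every PBS kidney. Lcn2, which encodes the urinary injury marker NGAL, a protein that sequesters bacterial iron carriers, had 702, 921, 905 and 790 in TNF-deficient LPS kidneys, against 2395, 1687, 2969 and 2753 in wild type LPS kidneys and 201 to 212 in PBS kidneys. All 4 TNF-deficient values lay between the other groups (log2 difference -1.54, SE 0.12, adjusted p = 2.6e-09). Plin2, the coat protein of lipid droplets, had 473, 824, 970 and 609 against 2715, 2063, 2336 and 2419 in wild type LPS kidneys, and 111 to 128 in PBS kidneys (-1.77, SE 0.14, adjusted p = 3.1e-09). Tnfrsf12a, the receptor for the cytokine TWEAK, differed by -1.51, the cell cycle inhibitor Cdkn1a by -1.17 and the stress cytokine Gdf15 by -1.10. The fibrinogen chain genes Fgg, Fga and Fgb, which injured tubule cells make, differed by -1.01, -0.85 and -0.72 and were called lower.

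Havcr1, which encodes KIM-1, the scavenger receptor used as a marker of injured proximal tubule, did not pass the test. It had 62.5, 80.1, 260 and 65.6 in TNF-deficient LPS kidneys, against 200, 148, 169 and 145 in wild type LPS kidneys and 2.09 to 4.93 in PBS kidneys. Mouse 11 was higher than every wild type kidney, while the other 3 TNF-deficient kidneys were lower than all 4 (log2 difference -0.76, SE 0.29, adjusted p = 0.065). Without mouse 11 the difference was -1.24, with an adjusted p of 6.5e-05, and without mouse 6 it was -0.81 with an adjusted p of 0.034; over all alternatives the adjusted p ran from 6.5e-05 to 0.46. Mouse 11 also had the highest Krt20, Cd14 and Plin2 of its group.

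**Figure D2:**
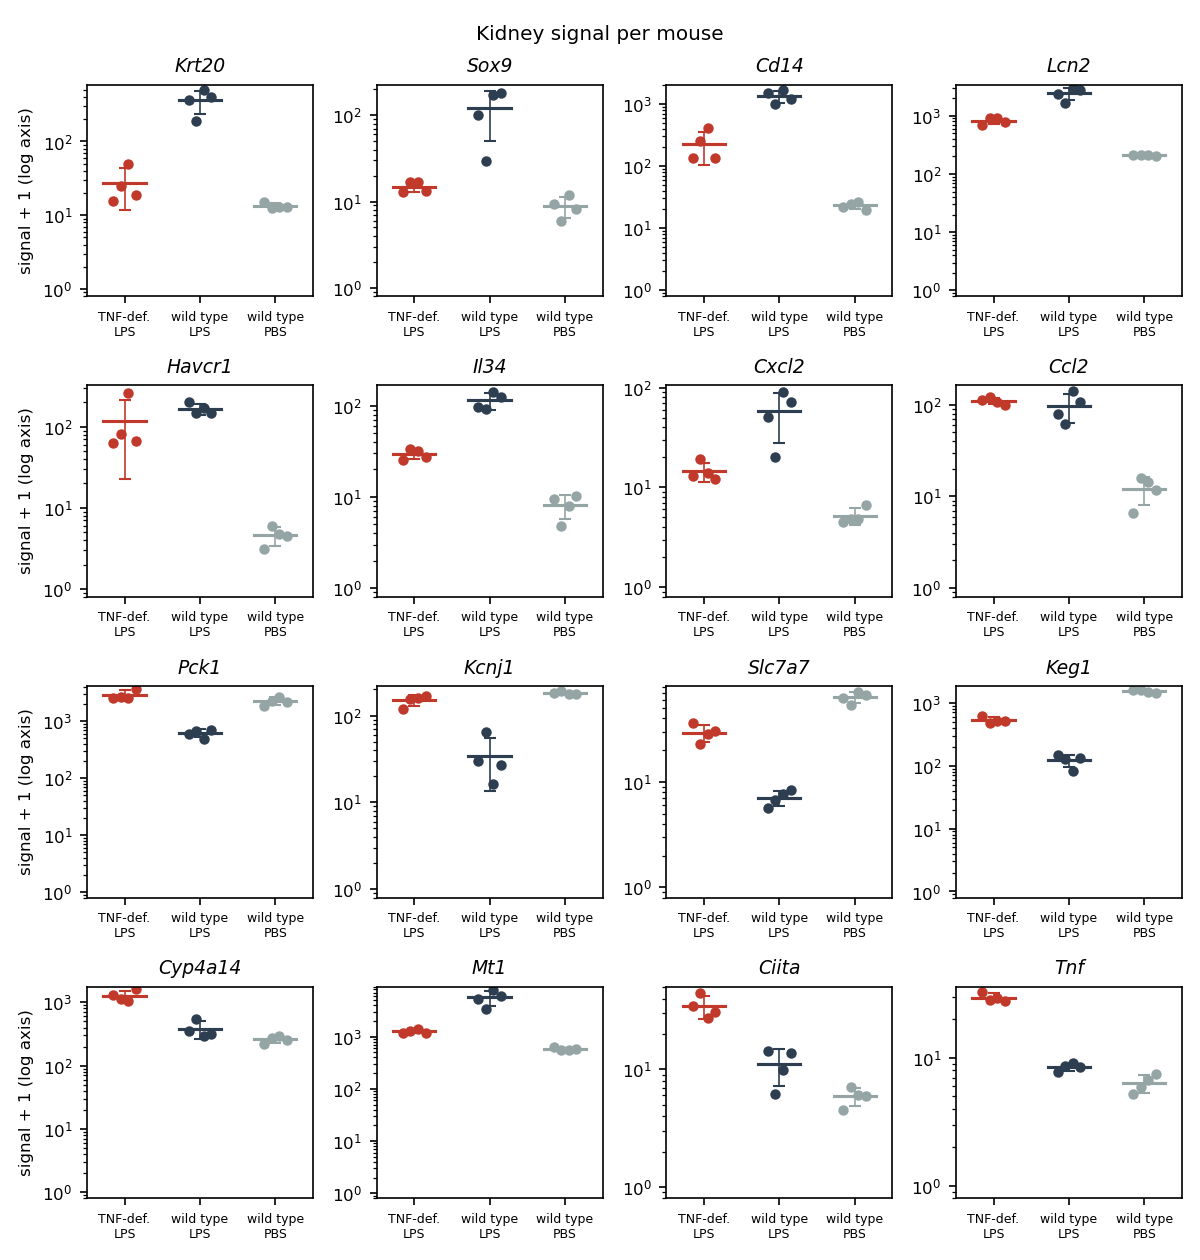
Signal + 1 on a log axis for 16 genes in TNF-deficient LPS, wild type LPS and PBS kidneys, in that order; points are mice, bars the mean and whiskers the SD (n = 4 a group). Krt20 and Sox9 of TNF-deficient kidneys lie near the PBS mice, Lcn2 and Cd14 between the other groups, and Havcr1 overlaps through 1 mouse at 260.

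Immediate early and growth response genes followed the same direction. Of 27 tested, 14 fell (51.9%) and 0 rose (median log2 difference -0.64), and without mouse 6 the number that fell was 19. The proto-oncogene Myc had 39.3, 28.7, 30.8 and 29.1 in TNF-deficient LPS kidneys, against 79.4, 80.7, 99.0 and 105 in wild type LPS kidneys and 14 to 18.4 in PBS kidneys (-1.48, SE 0.15, adjusted p = 1.2e-07). The groups did not overlap. Klf6, a zinc finger factor induced early in tubule injury, differed by -1.57 (adjusted p = 3.7e-05). Of 29 p53 target and apoptosis genes 9 fell (31.0%) and 2 rose (6.9%), beside 6.82% and 13.2% of all genes. Without mouse 5, 8, 11 or 12, 1 rose. Of 15 pyroptosis and necroptosis genes 0 passed with limma in either direction, 2 were lower at an unadjusted p under 0.05, edgeR called 2 lower and DESeq2 1, and without mouse 6 limma called 3 lower.

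Nephron segment genes went the other way. Proximal tubule cells reclaim sugars, amino acids, phosphate and filtered protein and make glucose. Of 48 proximal tubule genes tested, 27 rose (56.2%, against 13.2% of all genes) and 2 fell, with a median log2 difference of 0.44. Their median for wild type LPS against PBS was -1.53, and 42 of the 48 were lower there. Leaving out mouse 7 removed both lower calls, and mouse 8 or 11 also changed that count. Without mice 5, 6 and 9, 22 rose and 5 fell.

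Pck1, the rate-limiting enzyme of glucose synthesis, had 2568, 2715, 2540 and 3774 in TNF-deficient LPS kidneys, against 596, 689, 494 and 708 in wild type LPS kidneys and 1834 to 2721 in PBS kidneys. The TNF-deficient kidneys were within or above the PBS range (log2 difference 2.21, SE 0.12, adjusted p = 1.1e-11). Slc7a7, the light chain of a basolateral exporter of cationic amino acids, had 35.1, 21.8, 27.5 and 29.1 in TNF-deficient LPS kidneys, against 4.67, 5.77, 6.60 and 7.39 in wild type LPS kidneys and 52.6 to 70.5 in PBS kidneys (2.04, SE 0.18, adjusted p = 1.3e-08). Keg1, a glycine N-acyltransferase-like gene of the kidney, had 609, 480, 520 and 505 against 144, 128, 82.1 and 131 in wild type LPS kidneys, and 1450 to 1589 in PBS kidneys (2.14, SE 0.12, adjusted p = 1.1e-11). Both genes lay between the other groups with no overlap.

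Further proximal genes that rose were the lactate transporter Slc5a12 (log2 difference 2.03), the apical scaffold Pdzk1 (1.68), the neutral amino acid transporter Slc6a19 (1.61), the organic anion transporter Slc22a6 (1.54), the creatine precursor enzyme Gatm (1.27) and the nuclear receptor Hnf4a (1.04), which drives many proximal tubule genes. Slc5a12 was at 16.9, 16.4, 12.3 and 16.5 in TNF-deficient LPS kidneys against 0, 6.41, 4.40 and 5.54 in wild type LPS kidneys and 65.2 to 81.9 in PBS kidneys, so it remained far under the untreated level. The protein reabsorption receptors differed less: Cubn rose by 0.44 and Lrp2 had a difference of -0.01. The sodium-proton exchanger Slc9a3, which reclaims sodium and bicarbonate, fell by 0.70 and the inositol oxygenase Miox fell by 0.35. The phosphate transporter Slc34a1 (0.11), the glucose-6-phosphatase G6pc (-0.16) and the glucose transporter Slc5a1 (-0.19) were not called. Outside the list, the citrate transporter Slc13a2 had 40.8, 38.2, 27.9 and 52.4 in TNF-deficient LPS kidneys against 5.34, 7.69, 6.60 and 8.31 in wild type LPS kidneys (2.34, SE 0.19, adjusted p = 3.4e-09).

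The thick ascending limb of the loop of Henle reclaims salt through the transporter Slc12a1 and the potassium channel Kcnj1. Of 16 loop genes 11 rose (68.8%) and 1 fell, with a median log2 difference of 0.89. Kcnj1 had 117, 156, 160 and 169 in TNF-deficient LPS kidneys, against 28.7, 64.1, 15.4 and 25.9 in wild type LPS kidneys and 177 to 191 in PBS kidneys. Mouse 6 was again the wild type kidney nearest to the PBS group (2.31, SE 0.23, adjusted p = 9.9e-08; 2.95 without mice 5, 6 and 9). Slc12a1 had 197, 238, 278 and 310 against 65.4, 101, 117 and 112 in wild type LPS kidneys, and 570 to 682 in PBS kidneys (1.38, SE 0.14, adjusted p = 1.3e-07). The chloride channel subunit Bsnd (1.80), the phosphatase inhibitor Ppp1r1a (1.95) and the paracellular cation channel Cldn10 (1.41) rose as well, while the tight junction gene Cldn4 fell by 1.22. Umod, which encodes the abundant urinary protein uromodulin, had a difference of 0.11 and was not called.

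Distal segment genes that passed mostly rose too. Of 13 distal convoluted and connecting tubule genes 7 rose (53.8%) and 1 fell (7.69%). S100g, the vitamin D-dependent calcium-binding protein calbindin-D9k, had 2778, 2880, 2811 and 3109 in TNF-deficient LPS kidneys, against 1391, 1723, 1319 and 1466 in wild type LPS kidneys and 1597 to 1848 in PBS kidneys, so it exceeded the untreated level (0.98, SE 0.08, adjusted p = 5.2e-09). Kl, the FGF23 co-receptor Klotho, had 92.7, 55.2, 78.6 and 91.8 against 38.7, 46.1, 49.9 and 46.2 in wild type LPS kidneys, and stayed under the 297 to 356 of PBS kidneys (0.78, SE 0.13, adjusted p = 0.00013). The magnesium channel Trpm6 fell by 0.97, a call lost without mouse 5, 7, 8, 9, 10 or 12 and after thinning. The thiazide-sensitive salt transporter Slc12a3 (-0.02), Pvalb (0.03) and Calb1 (-0.04) were not called.

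In the collecting duct, 4 of 13 principal cell genes rose (30.8%) and 0 fell, and without mouse 6 limma called 5 higher and 1 lower. The 4 were Hsd11b2 (1.41), which protects the mineralocorticoid receptor from glucocorticoids, the water channels Aqp3 (0.98) and Aqp2 (0.86), and the potassium channel Kcnj10 (0.83). The sodium channel subunits Scnn1a (0.41), Scnn1b (-0.13) and Scnn1g (-0.11) were not called. Of 12 intercalated cell genes, which serve acid and base secretion, 9 rose (75.0%) and 1 fell (8.33%). The proton pump subunit Atp6v1b1 had 14.8, 16.4, 18.9 and 20.9 in TNF-deficient LPS kidneys, against 3.34, 12.2, 2.20 and 1.85 in wild type LPS kidneys and 22.3 to 41.9 in PBS kidneys (1.96, SE 0.33, adjusted p = 9.4e-05). The ammonia channels Rhbg and Rhcg rose by 1.85 and 1.66, and Foxi1, the transcription factor of these cells, fell by 0.69. Of 12 podocyte genes 6 rose and 0 fell, but 3 rose with edgeR and 2 without mouse 11, and mice 2, 10 and 12 also changed that count.

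**Figure D3:**
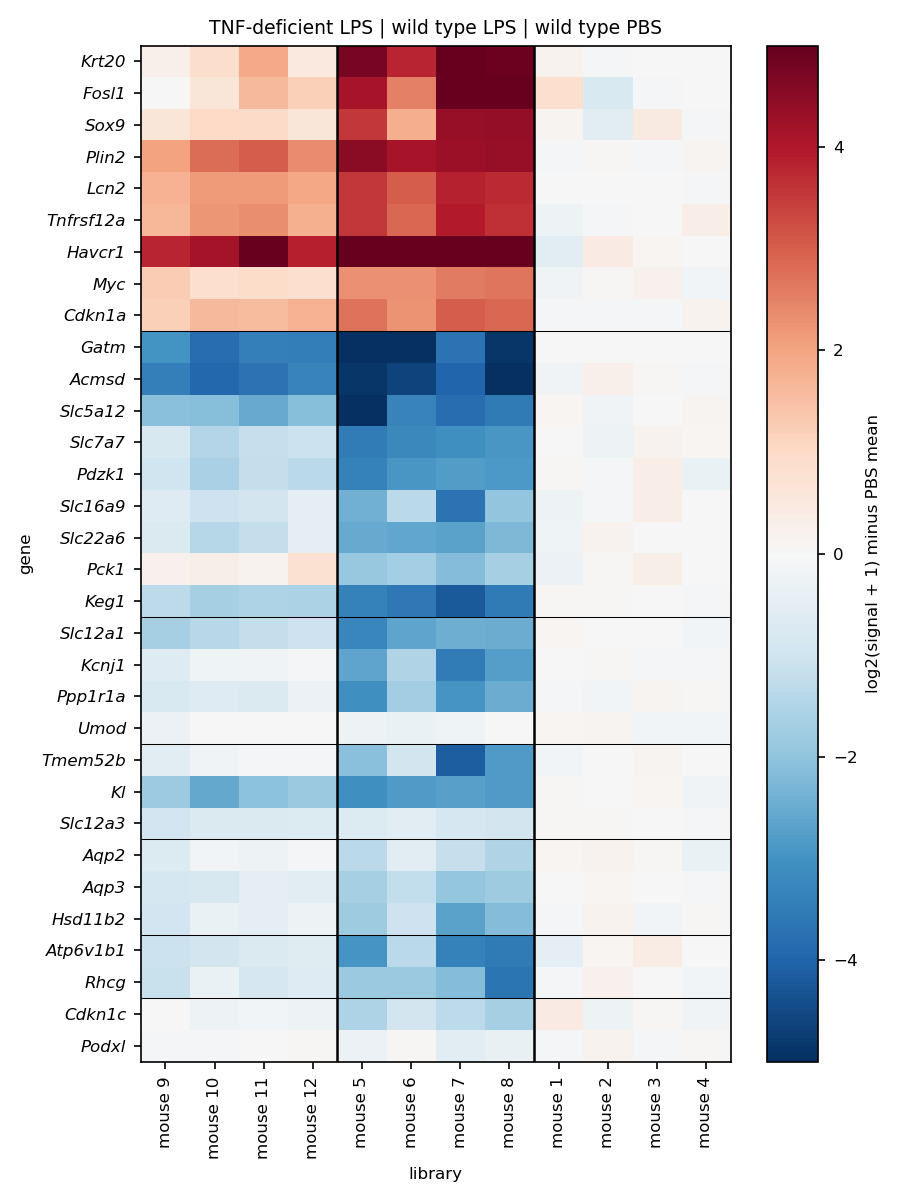
Log2(signal + 1) minus the PBS mean for 32 genes in 12 kidney libraries, with TNF-deficient LPS left, wild type LPS next and PBS right; rows run from injury genes through the nephron segments to podocytes, and colours are capped at 5 in both directions. Injury genes are paler in the TNF-deficient than in the wild type LPS columns apart from Havcr1 in mouse 11, and segment genes such as Slc12a1 and Slc7a7 are less depleted there than in the wild type LPS columns.

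Energy metabolism genes, which the tubule needs for transport, were also higher. All 39 oxidative phosphorylation genes tested were lower in wild type LPS than in PBS kidneys. In TNF-deficient against wild type LPS kidneys 17 of them rose (43.6%, beside 13.2% of all genes) and 0 fell. The differences were small, with a median of 0.20 and a highest of 0.66 for the complex I subunit Ndufs7, and DESeq2 called 10. Of 35 fatty acid oxidation and peroxisome genes 20 rose (57.1%) and 2 fell (5.71%). Ppargc1a, the coactivator of mitochondrial genes, had 71.0, 85.4, 119 and 96.6 in TNF-deficient LPS kidneys, against 23.3, 59.6, 16.9 and 20.3 in wild type LPS kidneys and 88.3 to 113 in PBS kidneys (1.76, SE 0.24, adjusted p = 6.9e-06). The TNF-deficient kidneys were close to the PBS range.

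Cyp4a14, a fatty acid omega-hydroxylase under control of the receptor PPAR-alpha, had 1304, 1116, 1032 and 1593 in TNF-deficient LPS kidneys, against 351, 553, 296 and 319 in wild type LPS kidneys and 215 to 295 in PBS kidneys (1.76, SE 0.15, adjusted p = 6.6e-09). It was thus highest in TNF-deficient kidneys. Its near copy Cyp4a10 had a difference of 1.77, and reads may be shared between them. Pdk4, which blocks glucose oxidation, fell: it had 290, 453, 479 and 464 against 1227, 906, 1469 and 1238 in wild type LPS kidneys, and 149 to 193 in PBS kidneys (-1.53, SE 0.14, adjusted p = 1.8e-08). Of 30 genes of tryptophan, NAD and amino acid breakdown 14 rose (46.7%) and 0 fell (median 0.69). Those that rose included the kynurenine pathway enzymes Kynu (1.54), Haao (1.34) and Acmsd (1.09). Acmsd had 16.2, 11.1, 13.3 and 17.5 against 5.34, 6.41, 11 and 3.69 in wild type LPS kidneys, where PBS kidneys had 163 to 218.

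Turning to the signalling side, both TNF receptors were lower. Tnfrsf1a, which encodes TNFR1, had 83.6, 91.8, 72.9 and 76.7 in TNF-deficient LPS kidneys, against 106, 96.1, 150 and 135 in wild type LPS kidneys and 35.6 to 45.7 in PBS kidneys (-0.56, SE 0.14, adjusted p = 0.0039). Tnfrsf1b, which encodes TNFR2, had 27.4, 29.7, 26.0 and 20.4 against 52.0, 30.7, 59.4 and 59.1 in wild type LPS kidneys (-0.90, SE 0.22, adjusted p = 0.0045). The groups did not overlap for either gene, though mouse 6 lay just above the TNF-deficient kidneys. Of 14 TNF ligand and receptor genes tested 4 fell (28.6%), namely both receptors, Tnfrsf12a and Tnfrsf9. Tnf and Tnfrsf21 were the 2 that rose (14.3%, near the 13.2% of all genes), and 1 rose without mouse 5, 6, 10 or 12.

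The LPS co-receptor gene Cd14 had 134, 248, 402 and 132 in TNF-deficient LPS kidneys, against 1528, 996, 1650 and 1187 in wild type LPS kidneys and 18.5 to 25.4 in PBS kidneys. It was among the lowest of all genes relative to wild type, with a wide gap between the groups (-2.67, SE 0.23, adjusted p = 8.5e-09). The LPS receptor gene Tlr4 had a difference of 0.63 and was not called. Of 19 Toll-like receptor sensing genes 5 fell (26.3%), including the adaptor Myd88 (-0.63), and 0 rose. The number that fell was 2 without mouse 7, 8 or 12, mouse 5 or 9 also changed it by over 1.5 times, and without mouse 5 limma called 1 higher.

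NF-kB targets were reduced in part. Of 31 tested 11 fell (35.5%) and 0 rose, with a median log2 difference of -0.38, and 16 fell without mouse 6. The neutrophil chemokine Cxcl2 had 11.9, 18, 12.8 and 11.2 in TNF-deficient LPS kidneys, against 49.4, 19.2, 89.5 and 70.2 in wild type LPS kidneys and 3.49 to 5.70 in PBS kidneys (-1.83, SE 0.31, adjusted p = 0.00011). Its neighbour Cxcl1 had 57.6, 63.7, 63.9 and 60.7 against 187, 48.0, 232 and 241 in wild type LPS kidneys, and 6.28 to 10.7 in PBS kidneys (-1.27, SE 0.30, adjusted p = 0.0036). For Cxcl1 mouse 6 fell under every TNF-deficient kidney, and without mouse 6 the difference was -1.82.

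The inhibitor gene Nfkbia, which encodes IkB-alpha, had 184, 187, 155 and 188 in TNF-deficient LPS kidneys, against 185, 149, 249 and 230 in wild type LPS kidneys and 91.4 to 109 in PBS kidneys. The groups overlapped (-0.16, SE 0.12, adjusted p = 0.42); without mouse 6 the difference was -0.30 with an adjusted p of 0.040, in a range of 0.0075 to 0.83 over all alternatives. Tnfaip3, which encodes the NF-kB inhibitor A20, was likewise not called (-0.63, adjusted p = 0.080) but passed without mouse 6 (-0.93, adjusted p = 0.00078, in a range of 0.00063 to 0.32). Birc3, an inhibitor of apoptosis recruited to TNFR1, fell by 0.98 and the NF-kB subunit gene Rela fell by 1.04.

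The promoters of Cxcl1, Cxcl2 and Nfkbia are shown because the 3 genes share a motif next to the start, while Cxcl1 and Cxcl2 were called lower and Nfkbia was not. Whether their genotype differences differ from each other was not tested. Capitals mark GGGNNTTTC, a 9-letter form of the NF-kB site, or GAAANNGAA, a form of the interferon response element, on either strand. The 120 bases before the start are from RefSeq on build GRCm38.p6, with Cxcl1 at chr5:90891125-90891244 (plus strand), Cxcl2 at chr5:90903779-90903898 (plus strand) and Nfkbia at chr12:55492648-55492767 (minus strand).
Cxcl1: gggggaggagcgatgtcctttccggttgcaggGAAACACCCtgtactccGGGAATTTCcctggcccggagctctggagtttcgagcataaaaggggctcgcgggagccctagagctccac
Cxcl2: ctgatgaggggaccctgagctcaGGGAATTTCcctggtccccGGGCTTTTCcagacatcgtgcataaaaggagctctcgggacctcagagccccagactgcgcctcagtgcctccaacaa
Nfkbia: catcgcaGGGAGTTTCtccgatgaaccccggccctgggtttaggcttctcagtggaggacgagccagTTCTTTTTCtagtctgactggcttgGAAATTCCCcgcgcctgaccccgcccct
In Cxcl1 the motif begins 88 and 71 bases before the start, in Cxcl2 97 and 78, and in Nfkbia 113 and 28, where the interferon form begins at 53. No marked stretch overlaps another.

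Across promoter windows from 250 bases before to 50 after the start, GGGNNTTTC was found in 7 of 82 windows (8.54%) of named genes that fell, in 2 of 80 (2.5%) of named genes that rose and in 4.26% of 13196 windows of all genes. With the second form GGGNNTTCC added, the shares were 17.1%, 12.5% and 10.4%. A window with both forms was counted once in these shares. GAAANNGAA was in 8.54%, 8.75% and 7.61%, and the STAT form TTCNNNGAA, which can overlap GAAANNGAA, in 11%, 7.5% and 6.77%. Windows were found for 59 of 82 genes that fell, 65 of 88 that rose and 10309 of all 13820. A gene can have several windows. The named genes were taken in part from lists such as NF-kB targets and chemokines. A higher share of NF-kB letters among those that fell may come from that choice. These are descriptions of letters and show no binding.

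Of 28 chemokine genes 5 fell (17.9%) and 2 rose (7.14%), beside 6.82% and 13.2% of all genes. The number that fell was 3 without mouse 7, 8 or 11, and 1 rose without mouse 5, 6, 9 or 10. Ccl2, the monocyte attractant, had 113, 120, 106 and 98.6 in TNF-deficient LPS kidneys, against 78.0, 60.9, 139 and 105 in wild type LPS kidneys and 5.58 to 14.8 in PBS kidneys. The groups overlapped, and both stood far above PBS (log2 difference 0.25, adjusted p = 0.48). Cxcl12, a stromal chemokine that LPS lowered, had 132, 117, 103 and 134 against 58.7, 74.3, 62.3 and 68.3 in wild type LPS kidneys, with a PBS mean of 155 (0.87, SE 0.12, adjusted p = 8.5e-06).

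Among cytokines and growth factors, 4 of 16 fell and 1 rose (6.25%), beside the 6.82% of all genes that fell and the 13.2% that rose. Without mouse 11, 2 rose. Il34, a ligand of the macrophage receptor CSF1R that tubule cells make, had 24.6, 32.9, 30.8 and 26.2 in TNF-deficient LPS kidneys, against 96.7, 91.0, 141 and 125 in wild type LPS kidneys and 3.84 to 9.26 in PBS kidneys (-1.93, SE 0.20, adjusted p = 1.6e-07). Tgfb2, a TGF-beta isoform, rose, with 17.6, 6.90, 13.3 and 14.6 against 2.00, 2.56, 3.67 and 3.69 in wild type LPS kidneys (1.78, SE 0.29, adjusted p = 7.5e-05). Il6 was at 4.22, 1.59, 3.79 and 3.40 against 8, 3.84, 26.4 and 15.7 in wild type LPS kidneys, near the depth limit and with overlapping groups. Its call (-1.53, adjusted p = 0.0082) was lost without mouse 7 (-1.13, adjusted p = 0.055), and the adjusted p ran from 5.5e-05 to 0.055 over the alternatives. Il1b was at 3.40 to 5.68 in TNF-deficient and 3.69 to 7.69 in wild type LPS kidneys and was not called (adjusted p = 0.58).

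IL-6 and STAT3 signalling genes were lower in 12 of 21 cases (57.1%) and higher in 0, with a median log2 difference of -0.73. Stat3 had 159, 189, 150 and 152 in TNF-deficient LPS kidneys, against 276, 206, 320 and 313 in wild type LPS kidneys and 57.0 to 65.5 in PBS kidneys (-0.76, SE 0.12, adjusted p = 4.7e-05). The kinase gene Pim1 fell by 1.24 and the transcription factor gene Cebpb by 1.02. Of 29 acute-phase genes 14 fell (48.3%) and 0 rose, with 1 higher at an unadjusted p under 0.05. Without mouse 10 limma called 1 higher. The apolipoprotein Saa1 had 188, 325, 198 and 355 against 785, 965, 740 and 550 in wild type LPS kidneys, and 116 to 139 in PBS kidneys (-1.54, adjusted p = 2.5e-07), with the caveat that reads may be shared with its near copy Saa2.

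Of 21 glucocorticoid-responsive and metallothionein genes 15 fell (71.4%, against 6.82% of all genes) and 1 rose, with a median of -0.64. The metallothionein Mt1, which binds zinc, had 1184, 1280, 1400 and 1171 in TNF-deficient LPS kidneys, against 5308, 3444, 7892 and 6132 in wild type LPS kidneys and 551 to 632 in PBS kidneys (-2.12, SE 0.14, adjusted p = 2.9e-10). Mt2 followed with -1.96. Mt1 and Mt2 were called lower in 11 of 14 other tissues too. Without mouse 6, 7 or 9 the number of higher members was above 1, with 3 without mouse 7.

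Most interferon-stimulated genes had negative differences, but few passed. Of the 36 tested, 30 were negative and 6 positive. The median log2 difference was -0.24, and -0.53 without mice 5, 6 and 9, against 0.05 over all genes. Of 36 interferon-stimulated genes 4 fell and 3 rose (11.1% and 8.33%, beside 6.82% and 13.2% of all genes). The number that fell was 11 with edgeR and 20 without mouse 6, and it was 2 without mouse 5, 7, 8, 9, 11 or 12. The 4 were the antiviral GTPase Mx1 (-1.48), the ubiquitin-like modifier Isg15 (-0.51), Xaf1 (-0.68) and Parp9 (-0.67), and the virus tether Bst2 (0.39) and Ifi27l2a (0.54) were among the 3. The Bst2 call was lost without mice 5, 6 and 9 (0.28, adjusted p = 0.11, in a range of 0.0044 to 0.11).

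Of 23 interferon-gamma-inducible GTPases and regulators 6 rose (26.1%) and 1, Gbp5 (-1.04), fell (4.35%). The number that rose was 2 with DESeq2. The number that fell was 5 with edgeR and 10 without mouse 6, and it was 0 without mouse 5, 7, 8, 9, 11 or 12. The median log2 difference was 0.16, and -0.28 without mice 5, 6 and 9. Ciita, the master regulator of MHC class II genes, had 33.7, 44.0, 26.5 and 30.1 in TNF-deficient LPS kidneys, against 13.3, 5.12, 8.80 and 12.9 in wild type LPS kidneys and 3.49 to 6.03 in PBS kidneys (1.70, SE 0.26, adjusted p = 3.3e-05). Each TNF-deficient value exceeded all the others. Of 11 class II presentation genes 4 rose (36.4%) and 0 fell. H2-Ab1 was at 252, 326, 287 and 284 against 187, 222, 177 and 170 in wild type LPS kidneys (0.60, adjusted p = 0.00016). The peptide loading gene H2-DMa rose by 1.00. Of 24 class I presentation genes 3 rose (12.5%) and 1 fell (4.17%), close to the 13.2% and 6.82% of all genes, while 4 fell with edgeR and 5 without mouse 6. The class I gene H2-D1 fell by 0.46 and the immunoproteasome subunit Psmb9 rose by 0.79.

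**Figure D4:**
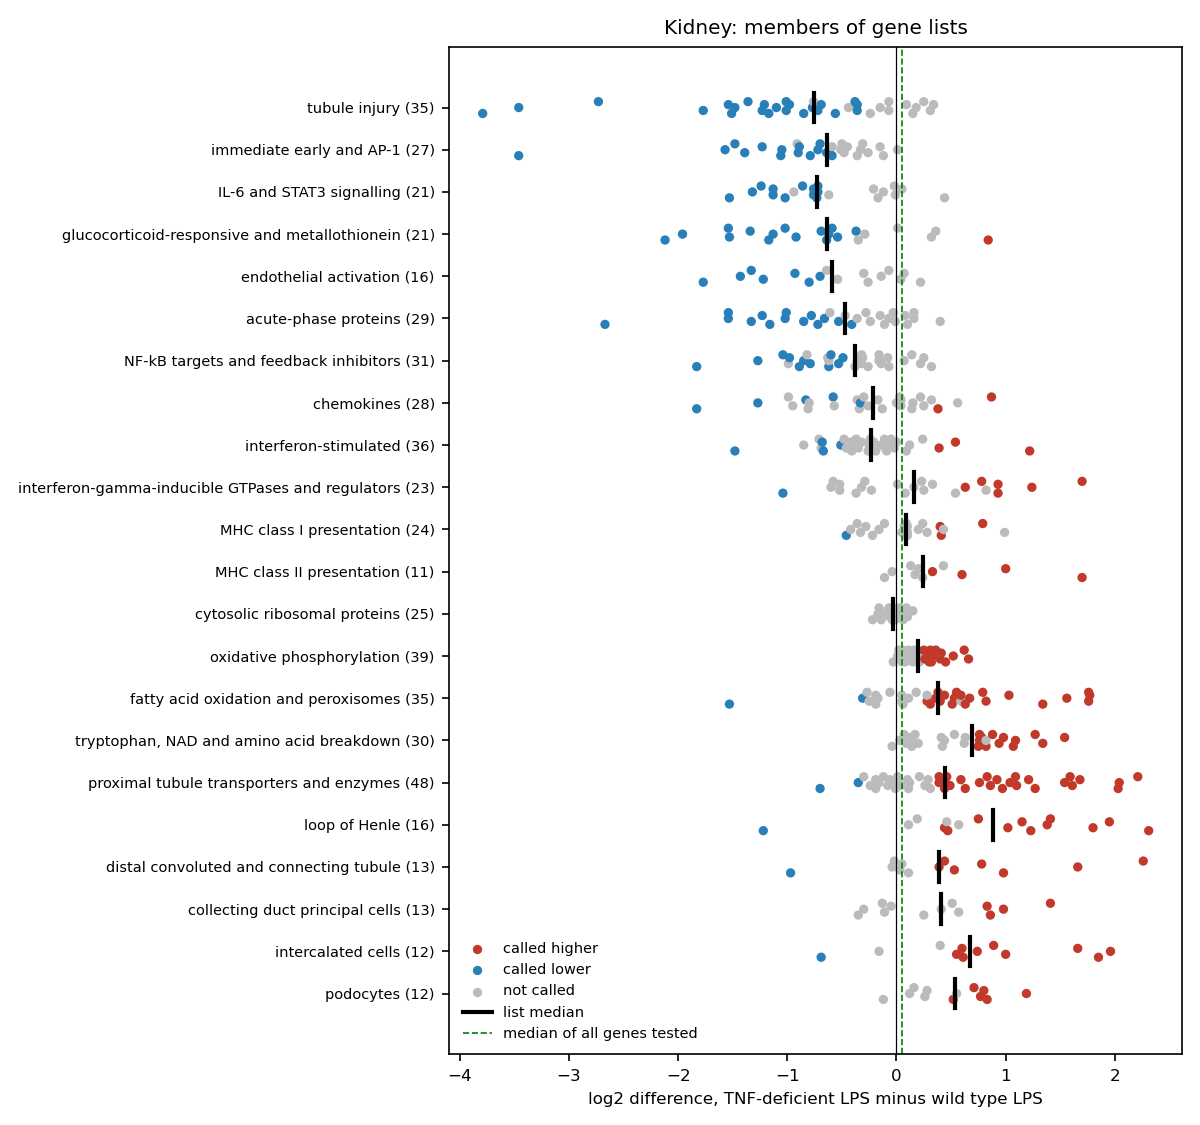
Log2 differences between TNF-deficient LPS and wild type LPS kidneys for the members of 22 gene lists; dots are genes, black bars the list medians and the dashed line the median of all genes tested, 0.05. Tubule injury (-0.76), IL-6 and STAT3 (-0.73) and immediate early genes (-0.64) sit to one side. Loop of Henle (0.89) and intercalated cell genes (0.68) sit to the other. Interferon-stimulated genes lie mostly below 0 (median -0.24), and interferon-gamma-inducible genes straddle the line (0.16).

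Vessel genes moved selectively. Of 16 endothelial activation genes 7 fell (43.8%) and 0 rose (median log2 difference -0.59). Lrg1, a secreted glycoprotein of activated endothelium, had 75.2, 93.4, 80.0 and 105 in TNF-deficient LPS kidneys, against 235, 197, 225 and 231 in wild type LPS kidneys and 29.2 to 34.9 in PBS kidneys (-1.33, SE 0.12, adjusted p = 1.2e-08). Icam1 and Vcam1, adhesion genes that TNF is known to induce on endothelium, were not called. Icam1 had 50.6, 55.7, 51.6 and 54.4 against 46.7, 31.4, 103 and 78.5 in wild type LPS kidneys (-0.14, adjusted p = 0.75), and Vcam1 had 49.9, 47.8, 44.5 and 48.6 against 45.4, 45.5, 54.3 and 56.3 (-0.07, adjusted p = 0.79). Without mice 5, 6 and 9 Icam1 passed (-0.73, adjusted p = 0.016, in a range of 0.016 to 0.99). Of 21 endothelial identity genes 5 rose (23.8%) and 3 fell (14.3%), beside 13.2% and 6.82% of all genes. The number that rose was 2 and the number that fell 5 with edgeR and with DESeq2. Of all genes tested with edgeR, 13.5% rose and 11.9% fell. With limma the number that rose was lower by over 1.5 times without mouse 7, 8, 9, 10, 11 or 12, down to 2 without mouse 9, and 5 fell without mouse 6.

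Leukocyte markers are given beside the 6.82% of all genes that fell and the 13.2% that rose. Of 23 neutrophil genes 2 fell (8.7%), Lcn2 and S100a9 (-0.36), and 1 fell without mouse 8 or 11. Of 23 macrophage genes 3 fell and 2 rose. The 3 were Cd14, the lysosomal protein gene Cd68 (-1.23) and Plac8 (-0.95), whereas the fractalkine receptor gene Cx3cr1 (1.33) rose and Csf1r, the receptor for IL-34, rose with 21.1, 21.8, 25.6 and 25.3 in TNF-deficient LPS kidneys against 17.3, 18.6, 15.4 and 11.1 in wild type LPS kidneys (0.57, adjusted p = 0.017). No macrophage gene was called higher without mouse 11 or with DESeq2. The Csf1r call was also lost without mouse 8 or 12, and its adjusted p ran from 0.0028 to 0.12. The macrophage surface gene Adgre1 (0.39) and the complement gene C1qa (0.50) were not called. Of 22 T and NK cell genes 1 fell (4.55%), the lymphocyte homing receptor Ccr7 (-0.61). That call was lost without mouse 4, 5, 7, 8, 9, 11 or 12. Of 16 B and plasma cell genes 2 fell (12.5%), Xbp1 (-1.17) and Sdc1 (-0.87), both of which the tubule also expresses; 1 fell without mouse 7, 8, 10, 11 or 12. Of 24 stromal genes 7 rose (29.2%), led by the pericyte proteoglycan Cspg4 (1.33) with the collagen genes Col1a1 (0.57) and Col1a2 (0.46). Col1a2 was not called without mice 5, 6 and 9 (0.24, adjusted p = 0.12, in a range of 0.0011 to 0.12). In that list 0 fell by limma, 1 was lower at an unadjusted p under 0.05, edgeR and DESeq2 each called 1 lower, and so did limma without mouse 6 or mouse 11.

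In the other tissues the share of genes called in either direction was 6.12% in bone marrow, 1.02% in brain, 2.94% in brown adipose tissue, 3.82% in colon, 5.67% in heart, 3.12% in inguinal lymph node and 9.4% in liver. It was 5.99% in lung, 3.97% in muscle, 2.8% in skin, 7.12% in small intestine, 4.14% in spleen, 4.46% in thymus and 2.86% in white adipose tissue, against 20% in kidney. Per gene, the kidney difference was set against the 14 other tissues of the same mice by taking, within each mouse, kidney minus the mean of the rest. For 1129 genes the genotype difference in kidney was not that of the other tissues, with 770 more positive (5.81%) and 359 more negative (2.71%) in kidney. Of the 1749 genes higher in kidney, 945 (54.0%) were called higher in no other tissue, and the difference from the other tissues was called the same way for 719. Of the 903 lower genes 424 (47.0%) were called lower in no other tissue, and 312 had the called difference. Without mouse 12 the count of 1129 was 710.

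The largest differences were ranked only among genes that passed this test and met the naming rule given below. Krt20 (-3.90, adjusted p = 0.00011), Sox9 (-2.74, adjusted p = 0.0020) and Fosl1 (-2.65, adjusted p = 0.010) differed most on the negative side, together with Il1f6, which encodes IL-36 alpha (-2.68, adjusted p = 0.0061), and Hsf2bp (-2.18, adjusted p = 0.0036). On the positive side were Ranbp3l, a nuclear export factor of Smad proteins (2.68, adjusted p = 0.0029), the fructose transporter Slc2a5 (2.5, adjusted p = 0.0022), the mitochondrial carrier Slc25a25 (2.47, adjusted p = 9.4e-06), the BMP antagonist Sostdc1 (2.47, adjusted p = 0.00083) and Kcnj1 (2.40, adjusted p = 0.0012). Slc25a25 had 149, 209, 155 and 191 in TNF-deficient LPS kidneys, against 33.4, 43.6, 49.1 and 54.5 in wild type LPS kidneys and 49.9 to 69.1 in PBS kidneys. It was above both other groups, and it was called lower in 2 other tissues and higher in 0. By list, the difference from the other tissues was called positive for 17 of 48 proximal tubule genes and negative for 0. Of 16 loop genes it was positive for 9 and negative for 1. Of 35 tubule injury genes it was negative for 14 and positive for 0. Over all genes tested it was positive for 5.81% and negative for 2.71%. Genes with little signal outside kidney can differ little there on this scale; Atp6v1b1, for example, passed the filter in 4 other tissues.

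**Figure D5:**
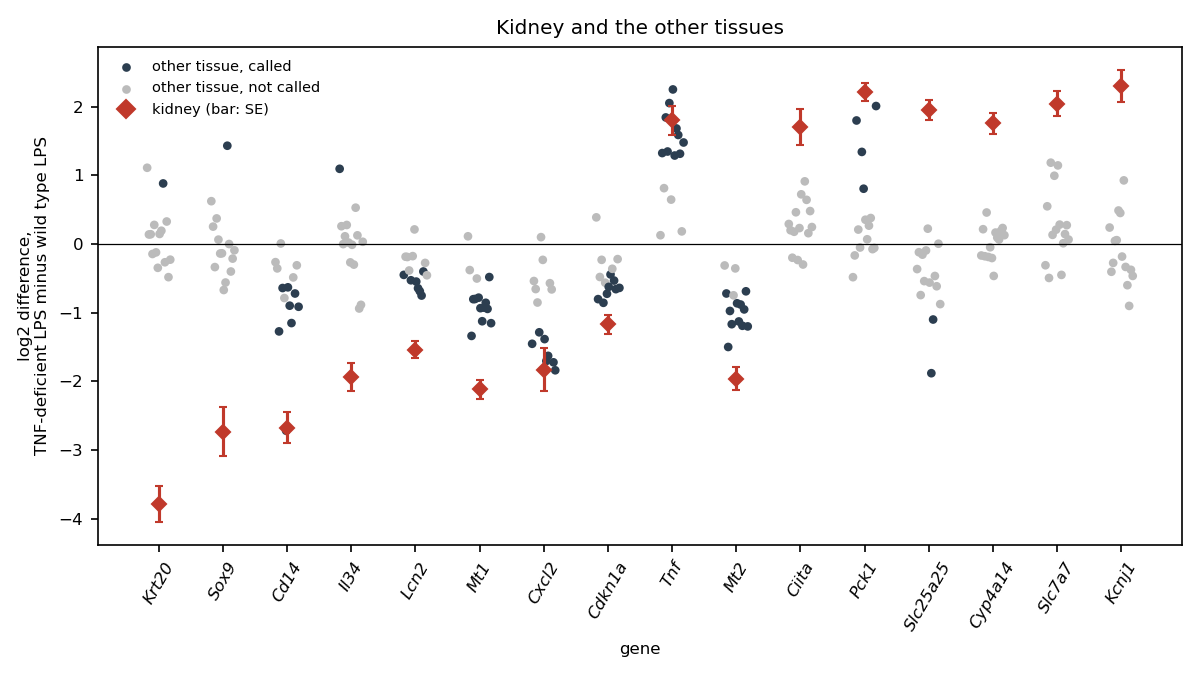
Log2 difference between TNF-deficient LPS and wild type LPS mice for 16 genes in kidney (diamonds, with SE) and in 14 other tissues (dots, dark where called). Krt20 and Sox9 lie far to the negative side in kidney alone, while Tnf is positive and Mt1 negative in most tissues.

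The strain name B6.129S says that the allele comes from cells of another strain, so genes near Tnf on chromosome 17 may carry that strain's sequence. Within 10 Mb of Tnf, 68 of 261 genes tested were called, 41 higher and 27 lower, or 26.1% (95% Wilson interval 21.1% to 31.7%, counting error only), beside 20% of all genes and 17.4% of 333 genes on the rest of the chromosome. Genes described above that lie there include Ltb next to Tnf, H2-D1 at 0.06, H2-Ab1 at -0.94, Psmb9 at -1.02, H2-DMa at -1.08, Hsf2bp at -3.25, Pim1 at -5.71 and Cdkn1a at -6.11 Mb from Tnf. For these genes a strain difference and a TNF effect cannot be told apart.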

How the data were processed

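RNA from 12 kidneys (and 14 other tissues of the same mice) was analysed from the authors' tables. The deposited values are named for CPM, but their sums differ between libraries, so they are treated as a signal scaled by the authors. Per the submitters' processing notes FastQC, MultiQC and edgeR (no versions given) and build mm10 were used. No source used here names the aligner. The primer carried a 10 bp molecular identifier, per the labels' protocols, and whether reads were collapsed on it is not stated. Dividing the deposited signal of a kidney library by its smallest step gave whole numbers within 0.1 for 100% of values, and these were taken as counts. The lowest chi-squared per degree of freedom among 18 replicate pairs was 1.443, so none agreed within counting error. The labels name a mouse for each sample, and the spread is that between mice.

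Values were transformed to log2(signal + 1). Genes reaching a signal of 1 in 4 or more of the 12 kidney libraries (13242 of 13820) were tested with limma 3.58.1 (trend, 9 residual degrees of freedom) in R 4.3.3 on 3 groups, at a Benjamini-Hochberg adjusted p under 0.05. Fold changes on this scale understate those of low genes. The kidney difference from other tissues was tested on within-mouse differences, so the mouse is the replicate block. Alternatives were a pseudocount of 0.25, no filter, median-of-ratios scaling, the 2 LPS groups alone, each mouse left out, edgeR 4.0.16 and DESeq2 1.42.0 on the recovered counts, and, chosen after seeing the data, thinning to 1084176 counts and leaving out mice 5, 6 and 9. On simulated counts for 13136 genes, the fit recovered 69% of 100 genes changed by a log2 of 1 and 94% of 100 changed by 2, and 8.94% of its calls were false.

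The members, gene lists and alternatives were chosen with earlier results of these data known. Named genes passed the test with a mean signal of at least 10 in the higher group and no overlap of the groups, leaving out predicted, clone, ribosomal protein, mitochondrial and antigen receptor genes: the 15 largest changes each way, up to 4 per list plus the largest member against the majority, the 5 largest differences from other tissues each way among those that passed the test of that difference, and 16 genes taken whatever their values (Lta among them, not analysed here). Members named outside this rule were chosen after their values were seen. Symbols were matched to GENCODE positions on GRCm38 (13555 of 13820), with 106 dotted symbols read with hyphens. Promoter sequence is RefSeq, GRCm38.p6. A few genes are not reported here.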

Additional observations from a re-analysis of the deposited data

Results flagged for a closer look

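Single libraries far from the other 3 of their group were found in 18 of 356 tests of a named gene in an LPS group, where chance gives about 1 in 20. By mouse there were 4 in mouse 9, 5 in mouse 11, 3 in mouse 12, 1 in mouse 5, 4 in mouse 6 and 1 in mouse 8. Among TNF-deficient LPS kidneys, mouse 9 was far from the rest for Col1a2 (signal 202), Myd88 (45.0), Pdk4 (290) and Plat (115). Mouse 11 was so for H2-DMa (51.6), Hba-a2 (540), Klf6 (78.1), Nfkbia (155) and Slc5a12 (12.3). Mouse 12 was so for Lta4h (93.7), Pck1 (3770) and Trp53inp1 (22.8). Among wild type LPS kidneys, mouse 6 was apart for Cxcl1 (48.0), Cyp4a10 (674), Psmb9 (98.6) and Sgk1 (294), mouse 5 for Slc5a12 (0) and mouse 8 for Foxi1 (39.7).

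The genotype difference in kidney was tested against that in the other 14 tissues of the same mice (limma, Benjamini-Hochberg). Among genes eligible for naming that passed, the 5 with the largest difference each way were taken, so passing was a condition of the choice. On the log2 scale the differences, kidney minus the other tissues, were 2.68 for Ranbp3l, 2.5 for Slc2a5, 2.47 for Slc25a25, 2.47 for Sostdc1 and 2.40 for Kcnj1. They were -3.90 for Krt20, -2.74 for Sox9, -2.68 for Il1f6, -2.65 for Fosl1 and -2.18 for Hsf2bp, which lies -3.25 Mb from Tnf.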

How the results depend on the processing

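Of 170 named genes that passed, 150 kept their call under every alternative that gave a value (20, or 19 for Il1f6, which had none with edgeR), 20 lost it in at least 1 and 0 changed direction. The naming rule favours large changes without overlap of the groups, so these counts do not describe all calls. Among 8 named genes that did not pass, 3 changed sign: Ccl2 to -0.17 and Il1b to 0.01 without mice 5, 6 and 9, Il1b to 0.11 after thinning, and Icam1 to 0.12 without mouse 7, where leaving out 1 mouse gave -0.44 to 0.12. The count of higher genes was 1090 with DESeq2, and that of genes whose kidney difference departs from other tissues was 590 with no replicate block, in place of 1129; the cause was not tested. Leaving out 1 mouse gave 1361 to 2140 higher genes, 626 to 1175 lower genes and 710 to 1393 genes with a tissue difference. The highest value of each was without mouse 6. The lower count was smallest without mouse 7 and the other counts without mouse 12. Other alternatives gave 1449 to 2051 higher and 758 to 1277 lower genes. Of 100 list counts, 44 moved by over 1.5 times in at least 1 alternative. Within 5 and 20 Mb of Tnf, 23.5% and 23% of genes were called. No paired analysis within kidney was possible because each mouse is in 1 group. At 1084176 to 2106453 counts a library, genes with a signal of a few units rest on a few reads, and a difference there may not be detectable.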

Other observations

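Stress response genes moved in both directions. In TNF-deficient against wild type LPS kidneys, 9 of 26 unfolded protein and integrated stress response genes rose (34.6%) and 7 fell (26.9%). Of all genes 13.2% rose and 6.82% fell. Those that fell included the transcription factors Atf4 (126, 134, 122 and 130 in TNF-deficient LPS kidneys against 266, 222, 323 and 317 in wild type LPS kidneys, log2 difference -1.12, adjusted p = 4.7e-08), Xbp1 (-1.17) and Atf3 (-1.23) and the glutathione-degrading enzyme Chac1 (-1.69). Those that rose were chaperones and folding enzymes of the endoplasmic reticulum, such as Calr (979, 986, 997 and 1047 against 762, 749, 755 and 744, 0.41, adjusted p = 0.00028), Hspa5 (0.46), Hsp90b1 (0.52) and Pdia4 (0.73). Of 18 heat shock genes 8 rose (44.4%) and 1, Bag3 (-0.50), fell (5.56%). The Bag3 call was lost without mouse 7, 8, 9, 10, 11 or 12, and without mouse 6 there were 2 lower. Dnaja1 was at 263, 238, 210 and 258 against 149, 174, 142 and 133 (0.69, adjusted p = 1.0e-05), and it was also called higher in 10 of 14 other tissues.

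Of 29 NRF2 antioxidant genes 11 fell (37.9%) and 3 rose (10.3%), beside 6.82% and 13.2% of all genes. Gclc, the rate-limiting enzyme of glutathione synthesis, was at 368, 377, 407 and 322 in TNF-deficient LPS kidneys against 983, 723, 1043 and 880 in wild type LPS kidneys and 236 to 309 in PBS kidneys (-1.29, SE 0.11, adjusted p = 5.8e-09). The thioredoxin reductase gene Txnrd1 fell by 1.10. Of 18 circadian clock genes 6 fell (33.3%) and 2 rose (11.1%), and 3 fell without mouse 7 or 11. The clock output factor Hlf was at 14.1, 20.2, 17 and 19.4 against 6.67, 3.84, 5.13 and 5.54, and 46.0 to 64.2 in PBS kidneys (1.57, SE 0.19, adjusted p = 2.1e-06). Of 26 cholesterol and fatty acid synthesis genes 7 rose (26.9%) and 5 fell (19.2%). There were 2 or more lower whichever mouse was left out, and fewer without mouse 5, 7 or 9. The regulator Srebf1 fell by 0.57 and the pathway enzyme Mvd rose by 1.28.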
